A study of Mus musculus with 16 samples.

Results

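The comparison described here set tumours that received 5 Gy of X-rays followed by the drug QH-II-066 against tumours that received 5 Gy alone. Its members were the 4 libraries titled 5Gy_QHII and the 4 titled 5Gy, 8 of the 16 libraries of the series, chosen by their labels. The tumours grew from B16F10-GP cells, a melanoma line, which had been placed with matrigel into the flanks of C57BL/6 females aged 6 to 8 weeks, and whole tumours were profiled by RNA sequencing after transcriptome capture. In the 5Gy group, the right flank was given 5 Gy once, on day 10. The 5Gy_QHII group, called the combined group here, had the same dose that morning and, from that evening, 10 mg/kg of QH-II-066 into the peritoneum each day for 7 days. Side by side with them stood 4 libraries of mice given the drug on the same schedule without radiation (QHII) and 4 labelled untreated, whose mice the protocol describes as given vehicle. The labels do not say whether mice given 5 Gy alone also had vehicle injections. They name neither the flank that was profiled nor 4 separate mice per group, so the p-values below rest on a spread between samples that may be technical in part.

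GABA-A receptors are chloride channels that open when the transmitter GABA binds, and the series' title concerns their enhancement in melanoma cells. An irradiated tumour holds melanoma cells, which make pigment, together with fibroblasts that lay down collagen, blood vessels, macrophages and lymphocytes. In RNA from a whole tumour, fewer cells of a type and less RNA per cell cannot be told apart. The comparison asks what daily drug added to the RNA of tumours that had already been irradiated.

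Total counts were 26045343 to 29964394 in the 5Gy libraries and 6994198 to 40799942 in the combined group, whose replicate 4 was the shallowest of the series. Melanoma markers were high in the 8 libraries, with Pmel, the fibril protein of pigment granules, at 3720 CPM or more (CPM, the share of a library's counts after TMM scaling). Transcripts of neighbouring tissue entered unevenly. The score of a skin epidermis list (mean log2 CPM of 19 keratinocyte genes) was 3.73 to 7.06 in 5Gy replicates 2 and 4 and combined replicates 2, 3 and 4, called the libraries with skin transcripts, and -2.26 to -0.01 in the other 11 libraries of the series. Krt5, a keratin of the basal epidermis, stood at 0.142, 800, 0.101 and 573 CPM in 5Gy replicates 1 to 4 and at 1.08, 144, 74.2 and 341 CPM in combined replicates 1 to 4. Both groups therefore held libraries with and without much skin, and list medians are given below with and without them where they moved strongly. Without those 5 libraries, 2 libraries stand against 1, combined replicate 1, which is assumed to vary like the others.

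No gene passed the test. Of 16101 genes tested with edgeR's quasi-likelihood test, 0 were higher and 0 were lower in the combined group at an adjusted p under 0.05, 0% each, and the smallest adjusted p was 0.209. At an unadjusted p under 0.05, 1864 genes (11.6%) were higher and 1272 (7.9%) lower. In 717 genes (4.45%) every combined library lay above every 5Gy library, and in 639 (3.97%) every one lay below. Other tools made calls: with DESeq2, 76 genes were higher (0.472%) and 47 lower (0.292%). With limma-voom, in which libraries carry quality weights, 20 were higher (0.124%) and 64 lower (0.397%). Both of these tools called 26 genes, 12 higher and 14 lower. The median log2 fold change of all tested genes was -0.06, with 44.3% above 0. The values that follow are therefore differences that did not pass the test across all genes, unless a sentence names another tool.

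The genes with the smallest p among those whose mean log2 CPM reached 1 are described first, 10 in each direction. The 10 lower ones had fold changes between -1.46 and -0.71 on the log2 scale, and several are known from macrophages and other immune cells. Each of the 20 had groups that did not overlap, and each had an edgeR adjusted p of 0.209. DESeq2 called 20 of the 20, and limma-voom called 6 of the 10 lower and 4 of the 10 higher genes. Since p chose them and the other tools read the same counts, both the overlap and these calls are a description of these genes.

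Dab2, an adaptor for endocytosis made by tissue macrophages among other cells (chromosome 15, 6299788 to 6440712, mm10), had levels of 83.6, 87.7, 61.4 and 62.1 CPM after 5 Gy alone. In the combined group they were 36.2, 26.7, 28.2 and 43.6 CPM, so that the highest of these lay well under the lowest 5Gy library. The log2 fold change was -1.14 ± 0.21 (SE; 95% interval -1.57 to -0.70), with an adjusted p of 0.209 in edgeR, 0.00286 in DESeq2 and 0.00828 in limma-voom. Untreated tumours, at 30.7 ± 4.04 CPM (SD, n = 4), and tumours given the drug alone, at 33.6 ± 8.38 CPM, stood near the combined group, at 33.7 ± 7.82 CPM.

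Fcgr2b, the inhibitory receptor for the constant part of IgG (chromosome 1, 170958617 to 170976547), followed the same arrangement. Its levels were 65.7, 71.2, 53.4 and 47.9 CPM after 5 Gy and 35.9, 32.1, 34.9 and 36.9 CPM in the combined group, a log2 fold change of -0.77 ± 0.15. The combined libraries lay close together and all were lower than the lowest 5Gy library. Npl, the lyase that splits sialic acid, stood at 9.82, 15.5, 9.72 and 10.5 CPM after 5 Gy and at 3.27, 3.45, 2.92 and 7.29 CPM in the combined group. Replicate 4 was the highest combined library for Npl, and the log2 fold change of -1.46 ± 0.35 was -1.82 without it.

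The other lower genes were St8sia4, a sialyltransferase that builds polysialic acid (-1.02 ± 0.23), Atp8b1, a phospholipid flippase (-1.33 ± 0.30), Gbe1, the glycogen branching enzyme (-0.73 ± 0.17), and Man1a, a Golgi mannosidase (-0.83 ± 0.19). Trib2, a pseudokinase (-0.71 ± 0.17), Cytip, a binding partner of cytohesins in leukocytes (-1.17 ± 0.27), and Gpm6b, a membrane glycoprotein of neural cells (-0.81 ± 0.20), completed them. In 9 of the 10, the 5Gy group had the highest mean of the 4 groups. The choice by p had already set it above the combined group, and the share over all genes was not counted. Gbe1 was the exception in the means: it stood at 46.4, 62.4, 57.7 and 47.2 CPM in the combined group, while untreated tumours had a mean of 92.0 CPM. With the skin score as a covariate, Chl1, a neural adhesion molecule, came among the 5 lower genes of smallest p, at 4.20, 12.8, 3.71 and 9.83 CPM after 5 Gy against 0.730, 1.72, 1.67 and 3.42 CPM (-2.07 ± 0.51). Frmd6, a FERM domain protein, joined it by the same rule at -0.52 ± 0.18, and its groups overlapped.

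Gpr183, the oxysterol receptor that guides B cells and dendritic cells, had the smallest p of all tested genes (unadjusted p = 2.21e-05, adjusted p = 0.209 in edgeR). It was picked after its values were seen, because its level was too low for the rule on named genes. It was counted at 0.890, 1.85, 1.35 and 0.983 CPM after 5 Gy and at 0.352, 0.235, 0.239 and 0.149 CPM in the combined group, with no overlap and a log2 fold change of -2.28 ± 0.38. DESeq2 gave it an adjusted p of 0.00685 and limma-voom 0.0358.

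The 10 genes leading the other direction had fold changes between 0.42 and 1.5 on the log2 scale. Aph1c, a subunit of gamma-secretase, the protease that cuts receptors such as Notch within the membrane (chromosome 9, 66814994 to 66834726), stood at 120, 105, 118 and 142 CPM after 5 Gy. In the combined group it stood at 182, 195, 189 and 241 CPM, every library above every 5Gy library, for a log2 fold change of 0.73 ± 0.15 (95% interval 0.42 to 1.05; edgeR adjusted p = 0.209, DESeq2 0.011, limma-voom 0.0431). Psen2, which encodes a catalytic subunit of the same protease and was looked up after the Aph1c values were seen, had 140, 131, 164 and 140 CPM against 226, 189, 201 and 307 CPM (0.68 ± 0.17). The groups did not overlap for Psen2 either.

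Klhdc8b, a kelch-repeat protein, stood at 5.12, 7.24, 8.10 and 7.66 CPM after 5 Gy and at 11.2, 13.6, 11.4 and 15 CPM in the combined group (0.86 ± 0.18). The remaining coding genes were Pgpep1, a peptidase that removes pyroglutamate (0.42 ± 0.09), Fam193b (0.67 ± 0.15), Aga, a lysosomal enzyme of glycoprotein breakdown (0.48 ± 0.11), Tmc6, a transmembrane channel-like protein (0.59 ± 0.14), and Dhrs2, a short-chain dehydrogenase (1.02 ± 0.24). Fam193b was lower in combined replicate 3, at 24.5 CPM, than in the other 3, at 34.3 to 36.2 CPM, and still above the 5Gy libraries, at 19.4 to 22.2 CPM. The last 3 were Rapgef3os2, named as lying opposite Rapgef3 (1.5 ± 0.32), the pseudogene Slc2a4rg-ps (1.33 ± 0.29) and C920006O11Rik (1.02 ± 0.23). Their counts are uncertain, since the counting used no strand and a pseudogene can share reads with its parent. In 10 of the 10, the 5Gy group had the lowest mean of the 4 groups. Here too the choice by p had already set it below the combined group, and the share over all genes was not counted.

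**Figure D1:**
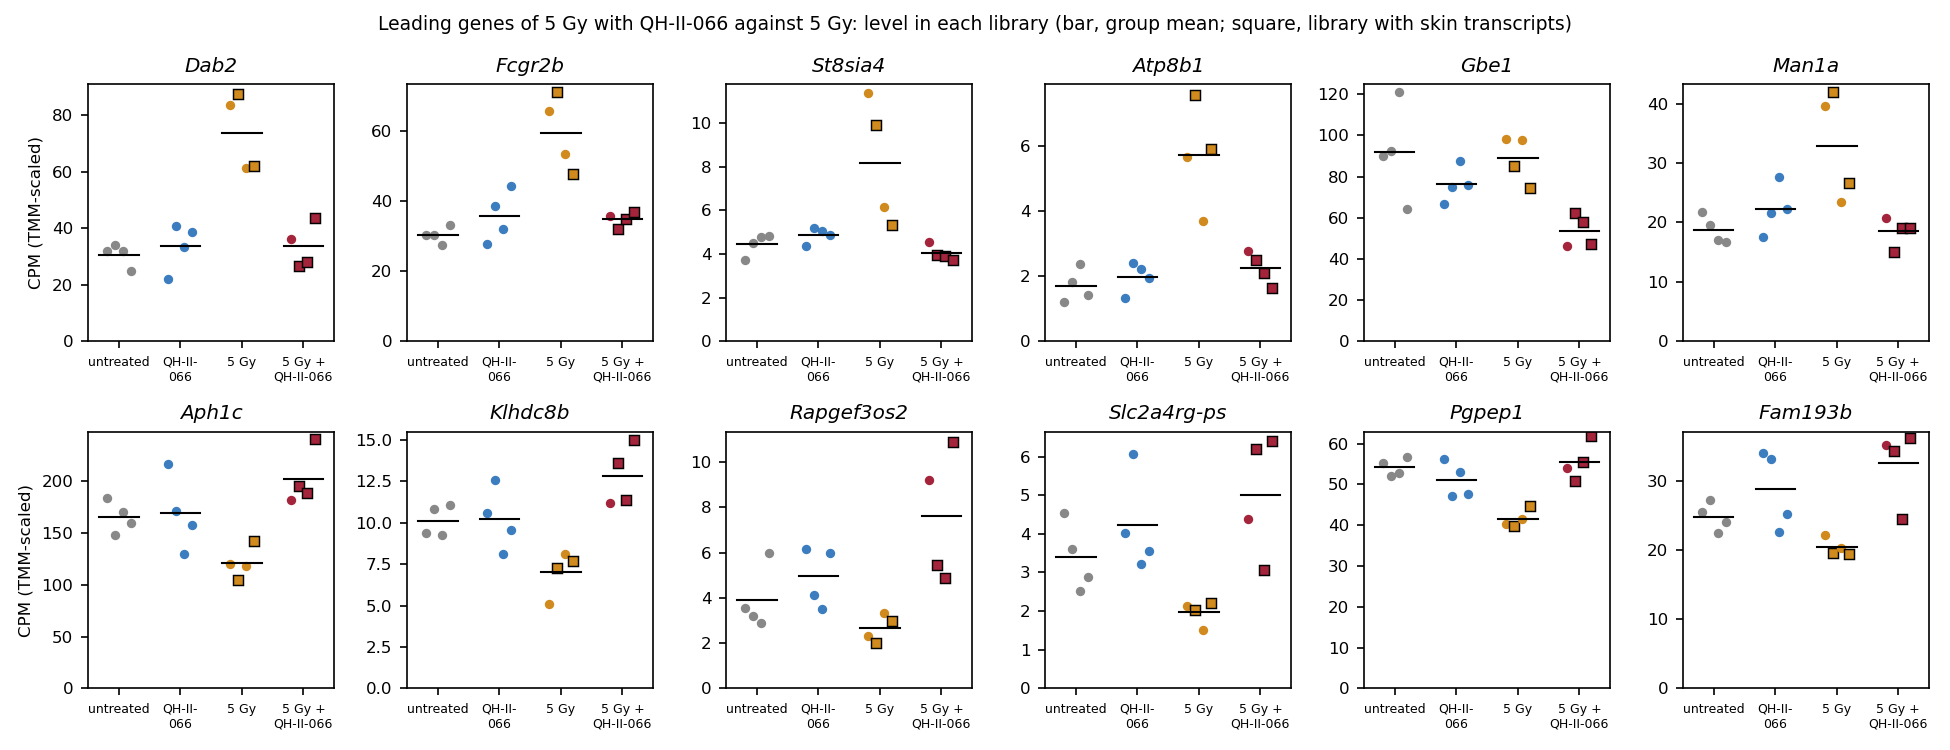
Levels in CPM (linear axes from 0) of 6 genes that were lower (top) and 6 that were higher (bottom) in the combined group, in each of the 16 libraries; bars are group means and squares are the libraries with skin transcripts. For Dab2 the 5 Gy libraries sit between 61.4 and 87.7 CPM and the combined libraries between 26.7 and 43.6 CPM, while for Aph1c the 5 Gy libraries sit between 105 and 142 CPM and the combined libraries between 182 and 241 CPM.

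Since the groups of these 20 genes do not overlap, any subset of the libraries keeps their direction, and only the sizes are given. Without the libraries with skin transcripts, the fold changes were -1.57 to -0.42 for the lower genes and 0.41 to 1.71 for the higher ones. Within the irradiated libraries that had skin transcripts, the ranges were -1.68 to -0.51 and 0.40 to 1.48.

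In unirradiated tumours, most of the lower genes lay on the other side of 0. Drug alone against untreated shares no library with the comparison above. There, 9 of the 10 lower genes had a fold change above 0 (range of the 10, -0.27 to 1.03, with Gbe1 the one below 0), and Npl stood at 1.03 ± 0.35. Of the 10 higher genes, 9 were also above 0 without radiation, at sizes between -0.09 and 0.35 over the 10. The difference between the drug's effect with and without radiation was tested as an interaction term. It called 0 genes in either direction (0%) in edgeR, with a smallest adjusted p of 0.445 and 251 genes (1.56%) higher and 870 (5.4%) lower at an unadjusted p under 0.05. The calls of DESeq2 were 3 higher (0.0186%) and 56 lower (0.348%), and those of limma-voom 54 (0.335%) and 438 (2.72%). The edgeR adjusted p of the interaction was 0.445 to 0.777 for the 10 lower genes and 0.481 to 0.708 for the 10 higher ones.

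**Figure D2:**
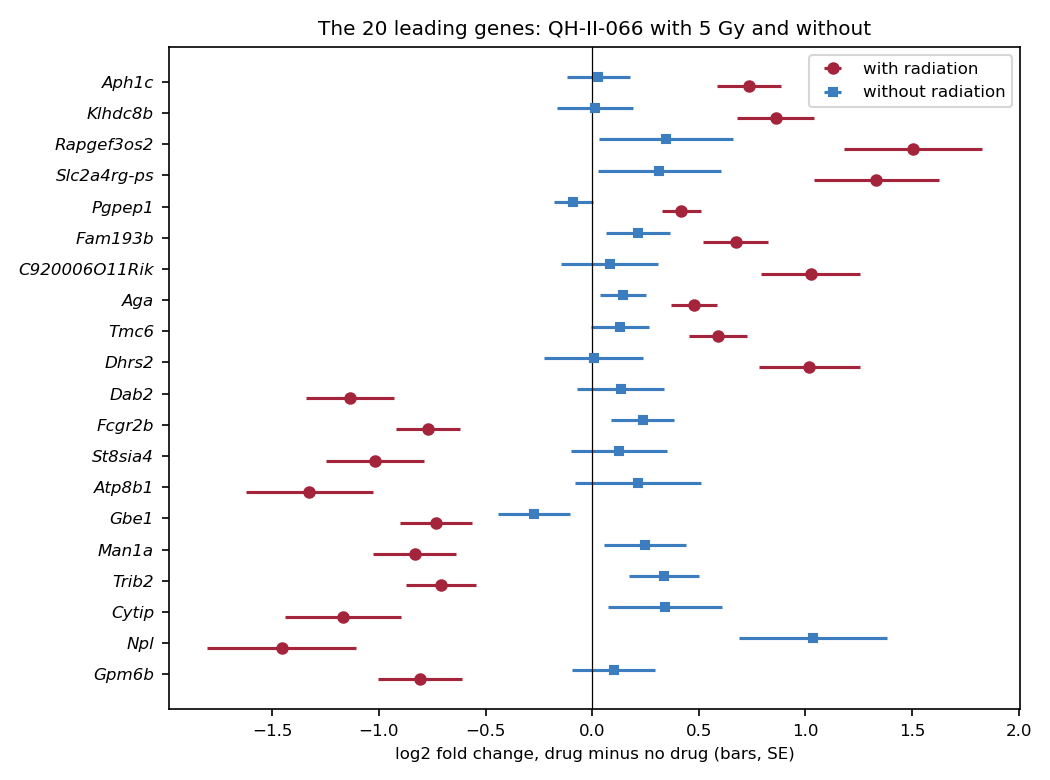
Log2 fold change with its SE for the 20 leading genes, for drug added to 5 Gy against 5 Gy (circles) and for drug alone against untreated (squares). The lower genes lie between -1.46 and -0.71 with radiation and between -0.27 and 1.03 without it.

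The signs of the drug's difference with and without radiation were also set side by side over all genes. Of the 1864 genes higher at an unadjusted p under 0.05, 89.3% were also above 0 for drug alone against untreated, against 51.6% of all tested genes. Of the 1272 lower genes, 66% were below 0, against 47.9% of all. An unadjusted p under 0.05 in both comparisons was met by 55 higher genes (2.95% of 1864, and 10.9% of the 506 without radiation) and by 123 lower genes (9.67% of 1272, and 15.2% of the 810). The 506 and 810 are 3.14% and 5.03% of the genes tested. Within classes of exon length the contrast varied. Of the 1272 lower genes, 913 have exons that sum to 4000 bases or more. Of these, 70.2% were below 0 without radiation, against 67% of all genes of that length. The shares were 57.9% against 41.3% for the 304 lower genes of 2000 to 4000 bases. They were 36.4% against 22.2% for the 44 of 1000 to 2000 bases and 63.6% against 22.4% for the 11 under 1000 bases. For the 356 higher genes of 4000 bases or more, 77.5% were above 0, against 32.9% of all. Higher genes of 2000 to 4000, 1000 to 2000 and under 1000 bases (646, 487 and 375 genes) had 87.8%, 94.7% and 96%. All genes of those lengths had 58.2%, 77.1% and 75.6%. The medians in unirradiated tumours were 0.27 for the higher genes and -0.15 for the lower ones.

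Gene length moved with the difference in both comparisons. Among genes with a mean log2 CPM above 3, the median log2 fold change of the combined group against 5Gy was 0.67 for the 327 genes whose exons sum to less than 1000 bases, of which 90.8% were above 0. It was 0.32 for 1264 genes of 1000 to 2000 bases, 0.03 for 3249 genes of 2000 to 4000 bases and -0.16 for 5112 genes of 4000 bases or more, of which 29% were above 0. For drug alone against untreated the 4 medians were 0.39, 0.23, 0.03 and -0.17. The gene length slope of a library, the slope of its deviation in log2 CPM on log2 length, was 0.109 ± 0.112 after 5 Gy and -0.0883 ± 0.120 in the combined group (SD, n = 4 each), and the groups overlapped.

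The libraries of a group differed in this measure. Genes under 1000 bases deviated from the mean of the 16 libraries by -0.62, -0.60, 0.06 and -0.41 (median log2 CPM) in 5Gy replicates 1 to 4 and by 0.72, -0.03, 0.02 and 0.41 in combined replicates 1 to 4. 5Gy replicate 3 thus stood with the combined libraries, and combined replicates 1 and 4 stood highest. With the slope as a covariate, the 4 medians were 0.13, 0.02, -0.00 and 0.01. The slope was itself fitted to genes with a mean log2 CPM above 3, so medians near 0 follow from how it was made. The 20 leading genes stayed on their sides of 0 with this covariate (-1.80 to -0.50 and 0.32 to 1.35). The part of RNA quality in these differences was not tested. Noncoding genes and pseudogenes had median exon lengths of 1856 and 657 bases, against 3859 for coding genes. Higher at an unadjusted p under 0.05 were 16.2% of 1188 noncoding genes and 20.7% of 723 pseudogenes, beside 10.7% of 14117 coding genes. Lower at that level were 0.673%, 1.52% and 8.83%. Gene segments of antibodies and T cell receptors, with a median exon length of 831.5 bases, had a median log2 fold change of -1.45 over 18 segments, 5 lower and 0 higher at that level.

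**Figure D3:**
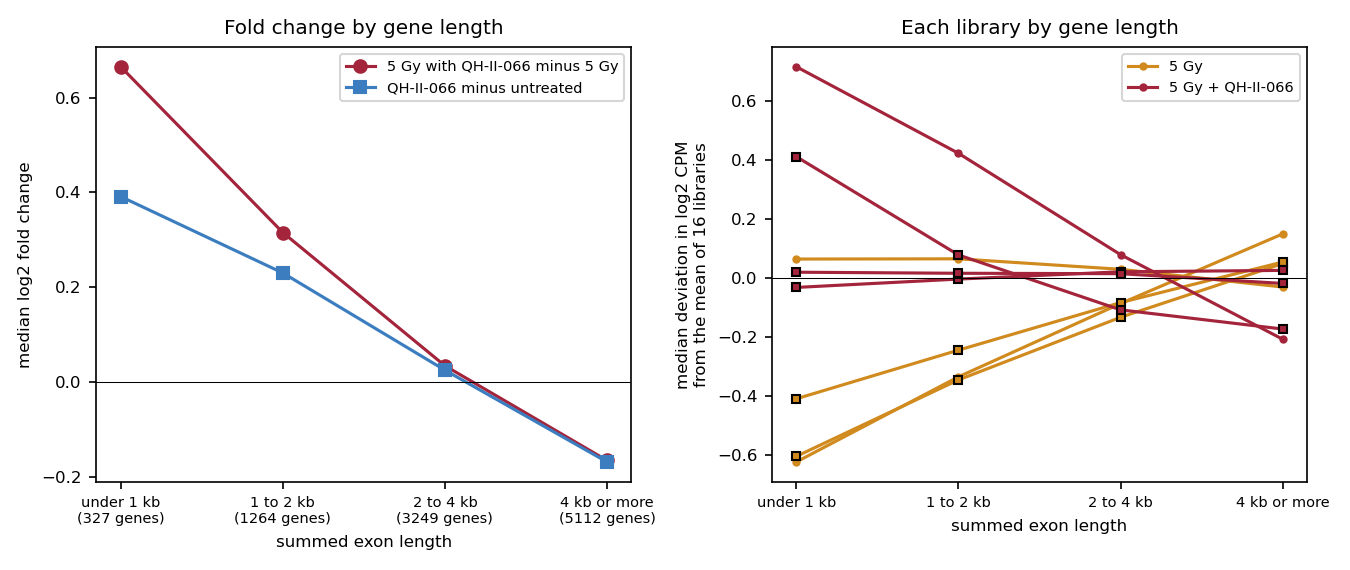
Left, median log2 fold change by summed exon length for drug added to 5 Gy (circles) and drug alone (squares); right, median deviation in log2 CPM of each irradiated library by length, with squares for libraries with skin transcripts. The medians with radiation go from 0.67 in the shortest genes to -0.16 in the longest, and 5 Gy replicate 3 lies apart from the other 3 libraries of its group.

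Gene lists for cell types and pathways were then read from the same fit. Of 41 lists, 32 had a median log2 fold change below 0 and 9 above 0, beside the median of -0.06 over all genes. In none was a member called by edgeR. The counts of members below are to be read against all tested genes, of which 7.9% were lower and 11.6% higher at an unadjusted p under 0.05, and 3.97% lower and 4.45% higher without overlap. The lists furthest below 0 were those of adipocytes, hair follicle (2 tested genes), skeletal muscle, fibroblasts and matrix, and skin, in that order. All 14 adipocyte genes were below 0, with a median of -1.88 and 0 at an unadjusted p under 0.05, and Adipoq, the hormone adiponectin of fat cells, stood at 13.3, 29.0, 8.03 and 10.3 CPM after 5 Gy against 0.568, 0.588, 1.88 and 8.34 CPM. The groups met only at combined replicate 4. With the length slope as a covariate the adipocyte median was -0.50. It was -3.42 without combined replicate 4 and -4.15 without the libraries with skin transcripts. The medians were -1.26 for 19 skeletal muscle genes and -0.87 for 19 skin genes, with 0 at an unadjusted p under 0.05 in either. Without the libraries with skin transcripts they were -3.17 for muscle and 2.71 for skin, and within them -1.81 and -1.45. Without combined replicate 4 they were -2.20 and -1.75, and with the length slope as a covariate -0.55 and 1.67. On the log scale of the list score, skin went the other way, at 2.44 ± 4.87 after 5 Gy and 3.68 ± 2.64 in the combined group (SD, n = 4 each).

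**Figure D4:**
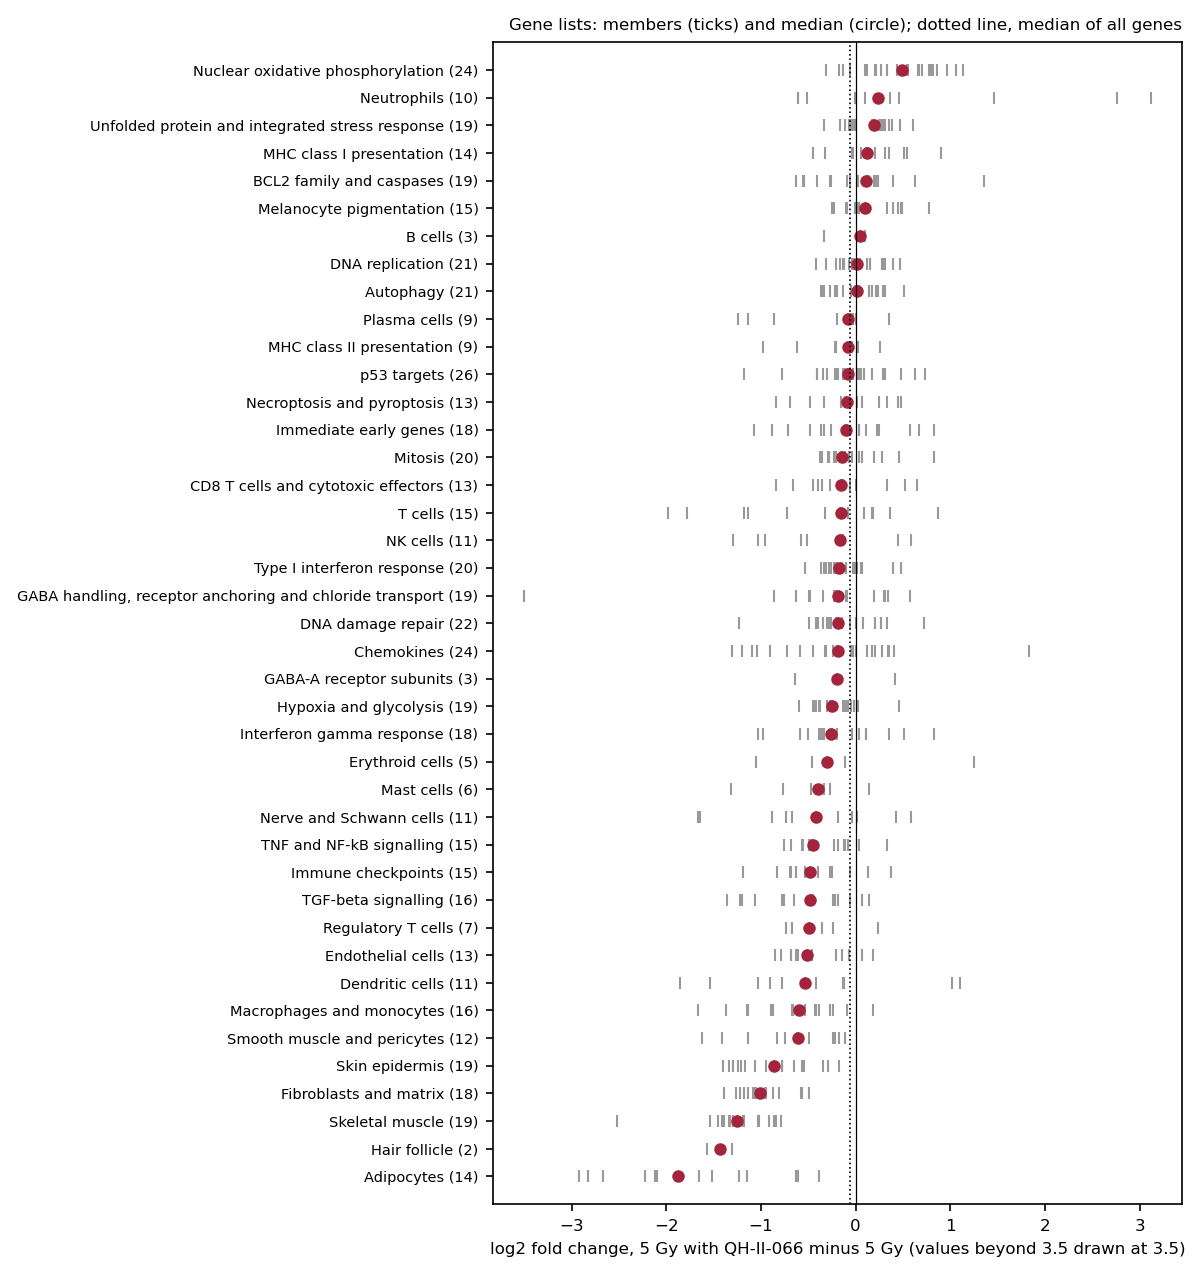
Log2 fold change of the combined group against 5 Gy for the tested members of each list (ticks, number in brackets) and their median (circle), with a dotted line at the median of all genes, -0.06. Lists of adipocytes, hair follicle (2 genes), muscle, fibroblasts and skin lie furthest below 0 and nuclear oxidative phosphorylation furthest above.

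Fibroblast and matrix genes were lower in the combined group throughout the list. Of 18 members, 18 were below 0, with a median of -1.01, 14 at an unadjusted p under 0.05 (against 7.9% of all genes) and 3 with groups that did not overlap (against 3.97%). DESeq2 called 4 of them lower (against 0.292% of all genes) and limma-voom 5 (against 0.397%). Col1a1, a chain of type I collagen, stood at 1170, 894, 555 and 456 CPM after 5 Gy and at 472, 162, 288 and 471 CPM in the combined group, a log2 fold change of -1.14 ± 0.37. Its groups overlapped only through 5Gy replicate 4, which lay under combined replicates 1 and 4. Untreated tumours had 152 ± 19 CPM, so the combined group lay between them and the 5Gy group.

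Fbn1, the microfibril protein fibrillin-1, stood at 120, 89.5, 43.0 and 51.2 CPM after 5 Gy and at 37.7, 15.6, 22.6 and 40.9 CPM in the combined group, without overlap (-1.39 ± 0.36; adjusted p 0.209 in edgeR, 0.0351 in DESeq2 and 0.0431 in limma-voom). Col5a2, a chain of type V collagen, did not overlap either (-1.18 ± 0.32). Col6a1 and Col6a2, chains of type VI collagen, were at -1.06 ± 0.26 and -1.07 ± 0.29, and Col3a1, of type III collagen, at -1.26 ± 0.41. The list score was 7.34, 7.39, 6.65 and 6.54 after 5 Gy and 6.52, 5.23, 5.64 and 6.41 in the combined group, so that every combined library was below every 5Gy library by this measure. The median of the list was -0.53 without the libraries with skin transcripts, -1.17 within them and -0.995 once the model held the skin score. For drug alone against untreated it was 0.56.

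Scores without overlap were also found for the lists of endothelial cells and of TGF-beta signalling, the pathway that drives matrix production. Of the 41 lists, 4 had every combined library below every 5Gy library, and 0 had every one above. The margins were small. The highest combined score and the lowest 5Gy score were 4.204 and 4.27 for endothelial cells and 3.987 and 4.023 for TGF-beta signalling. Among 13 endothelial genes, 11 were below 0, with a median of -0.51 and 5 at an unadjusted p under 0.05. Pecam1, the adhesion molecule CD31, stood at 81.3, 54.5, 48.9 and 49.5 CPM against 37.3, 35.7, 45.8 and 34.8 CPM (-0.61 ± 0.22), just without overlap, and Kdr, the main receptor for VEGF, was at -0.68 ± 0.23 with overlap. Among 16 TGF-beta genes, 14 were below 0, with a median of -0.48. Tgfbr2, the receptor that binds the ligand, stood at 100, 110, 61.8 and 76.0 CPM against 53.4, 51.3, 56.8 and 59.5 CPM (-0.66 ± 0.18), and Ltbp1, which stores the latent ligand in the matrix, was at -1.22 ± 0.43 with overlap. These medians were -0.63 and -0.52 without the libraries with skin transcripts.

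Macrophage genes were lower in 15 of 16 cases, with a median of -0.60, 7 at an unadjusted p under 0.05 and 3 without overlap. Mrc1, the mannose receptor of tissue macrophages, stood at 101, 128, 74.1 and 73.4 CPM after 5 Gy and at 49.2, 25.7, 26.1 and 71.7 CPM in the combined group (-1.14 ± 0.33). Combined replicate 4 came within a few CPM of the lowest 5Gy libraries. Itgam, the integrin CD11b of myeloid cells, stood at 67.6, 99.4, 34.9 and 46.1 CPM against 26.5, 14.7, 22.6 and 32.6 CPM (-1.37 ± 0.41). Nos2, the inducible nitric oxide synthase, showed no overlap either, at 13.6 to 15.2 CPM against 3.29 to 10.7 CPM (-1.15 ± 0.37).

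Cd163, the scavenger receptor for haemoglobin, overlapped through combined replicate 4 at 15.6 CPM and was at -1.67 ± 0.53. Lyz2, lysozyme of macrophages and neutrophils, was at -0.53 ± 0.27. The median of the macrophage list was -0.01 without the libraries with skin transcripts, where combined replicate 1 is the only combined library, and -0.77 within them. In that replicate the list score was 5.67, against 5.66 to 6.46 in the 5Gy libraries, while combined replicates 2 and 3 had 4.66 and 5.07.

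T cell genes had a median of -0.16 over 15 genes, 5 of them above 0, yet 4 were lower at an unadjusted p under 0.05. Without the libraries with skin transcripts the median was 0.355, and within them it was -0.51. Cd28, the costimulatory receptor, stood at 2.24, 3.98, 1.55 and 1.05 CPM after 5 Gy and at 0.811, 0.392, 0.627 and 0.298 CPM in the combined group (-1.98 ± 0.47; adjusted p 0.209 in edgeR and 0.0329 in DESeq2). The groups did not overlap for this gene, which is counted at a low level.

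Cd3e, a chain of the T cell receptor complex, was close between the groups, at 3.88, 6.61, 1.55 and 2.51 CPM against 3.65, 2.86, 1.61 and 3.57 CPM. Its fold change was -0.33 ± 0.47. Cd247, the zeta chain, and Icos, a costimulatory receptor, were at -1.18 ± 0.47 and -1.14 ± 0.50 with overlap. Among 13 genes of CD8 T cells and cytotoxic effectors, 0 had an unadjusted p under 0.05, and the median was -0.15.

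Cd8a, the CD8 coreceptor, stood at 9.18, 15.5, 3.81 and 6.78 CPM against 9.22, 4.19, 4.74 and 7.74 CPM (-0.45 ± 0.38). The groups spanned much the same range. Gzmb and Prf1, the granzyme and perforin that kill target cells, were at -0.35 ± 0.45 and -0.84 ± 0.49, and Ifng, interferon gamma, at -0.06 ± 0.53. Without the libraries with skin transcripts the median of the cytotoxic list was 0.68, and within them it was -0.65, so its direction depended on which libraries were compared. The value without them rests on combined replicate 1, whose gene length slope was -0.248. The median exon length of this list was 1418 bases, and with the length slope as a covariate its median was -0.46. Of the 17 immune and immune signalling lists, 14 had a median below 0 in all libraries, 6 without the libraries with skin transcripts and 16 within them. With the length slope as a covariate, 16 of the 17 were below 0.

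The dendritic cell list had a median of -0.54 over 11 genes, 0.07 without the libraries with skin transcripts and -0.90 within them. Among its members, Flt3, the growth factor receptor of dendritic cell precursors, had groups that did not overlap, at 1.12 to 2.99 CPM against 0.149 to 0.784 CPM (-1.86 ± 0.48; DESeq2 adjusted p 0.039). Cxcl12, a chemokine of stromal cells, stood at 48.6, 59.3, 51.9 and 49.0 CPM after 5 Gy and at 27.7, 10.2, 19.1 and 34.7 CPM in the combined group (-1.20 ± 0.33; limma-voom adjusted p 0.00828, edgeR 0.209). All 4 combined libraries were lower than the 5Gy libraries. Checkpoint genes had a median of -0.48, with 13 of 15 below 0. Cd86, the ligand of CD28, did not overlap (-0.68 ± 0.25), and Cd274, which encodes PD-L1, was at -0.53 ± 0.27. The medians of the interferon lists were -0.17 for type I and -0.26 for interferon gamma in all libraries. They were 0.28 and 0.34 without the libraries with skin transcripts and -0.35 and -0.62 within them, so their direction differed between the subsets. Cxcl9 and Cxcl10, chemokines induced by interferon, were at -0.45 ± 0.27 and 0.12 ± 0.32. Tnfaip3, a brake on NF-kB signalling, was at -0.56 ± 0.19, in a list with a median of -0.45.

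The neutrophil list had a median of 0.23, with 6 of 10 genes above 0, and of -0.07 without the libraries with skin transcripts. S100a8 and S100a9, the calprotectin subunits, had its largest fold changes. S100a8 was counted at 0.498 to 1.76 CPM after 5 Gy and at 1.30, 33.8, 0.657 and 0.298 CPM in the combined group, and S100a9 at 0.676 to 3.38 CPM against 1.22, 37.5, 1.46 and 2.83 CPM. Combined replicate 2 stood far above the other irradiated libraries for both genes. Leaving it out gave a log2 fold change of -0.39 for S100a8 and 0.17 for S100a9, from 3.12 ± 1.22 and 2.77 ± 1.09 with it.

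Pigmentation genes, made by the melanoma cells, were split. Of 15 members, 10 were above 0, with a median of 0.10, 6 at an unadjusted p under 0.05 and 4 without overlap. The median was -0.02 without the libraries with skin transcripts and 0.22 within them, 0.21 without combined replicate 4 and 0.29 with the length slope as a covariate. Mc1r, the receptor for melanocyte-stimulating hormone, stood at 178, 155, 232 and 192 CPM after 5 Gy and at 280, 250, 234 and 297 CPM in the combined group (0.49 ± 0.14). Combined replicate 3 was barely above 5Gy replicate 3. Gpr143, a receptor of the pigment granule, stood at 42.2, 39.8, 40.6 and 45.5 CPM against 55.1, 60.2, 67.5 and 51.1 CPM (0.48 ± 0.13; limma-voom adjusted p 0.043, edgeR 0.209). Dct, dopachrome tautomerase of melanin synthesis, and Pmel were at 0.45 ± 0.15 and 0.39 ± 0.13, without overlap. Mlana, a melanosome protein, was at 0.77 ± 0.28 with overlap and 0.24 with the length slope as a covariate. Tyr, the tyrosinase that starts melanin synthesis, was at -0.10 ± 0.21, at 550 to 720 CPM against 434 to 740 CPM.

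Nuclear genes of oxidative phosphorylation, the respiratory chain and ATP synthase, were the list furthest above 0. Of 24 members, 20 were above 0, with a median of 0.49, 13 at an unadjusted p under 0.05 and 4 without overlap. Cox7c, a small subunit of cytochrome c oxidase, stood at 76.0, 82.9, 144 and 101 CPM after 5 Gy and at 262, 157, 162 and 305 CPM in the combined group (1.13 ± 0.34). Ndufa4 stood at 352, 329, 580 and 430 CPM against 887, 693, 660 and 697 CPM (0.80 ± 0.24). 5Gy replicate 3 was the nearest to the combined libraries in both, as it was for short genes in general. Cox6c and Ndufa1 were at 0.86 ± 0.27 and 0.77 ± 0.25.

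The median exon length of the members was 2208 bases. With the length slope as a covariate the median was 0.09, and for drug alone against untreated it was 0.27. Atf4, a transcription factor of the integrated stress response, was at 0.60 ± 0.28 and at 0.07 with that covariate, in a list of 19 with a median of 0.20. Pdia6, a folding enzyme of the endoplasmic reticulum in the same list, did not overlap (0.38 ± 0.14). Hypoxia and glycolysis genes were below 0 in 17 of 19 cases, with a median of -0.25 and 3 without overlap. The median was -0.39 without the libraries with skin transcripts and 0.03 within them. Among these, Hk2, a hexokinase, stood at 385, 346, 351 and 351 CPM against 208, 314, 323 and 250 CPM (-0.39 ± 0.18), and Pfkfb3, a regulator of glycolysis, at -0.60 ± 0.23.

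Targets of p53, the transcription factor activated by DNA damage, had a median of -0.08 over 26 genes, beside -0.06 over all genes. Cdkn1a, the cell cycle inhibitor p21, was at -0.11 ± 0.11, and Mdm2, the ligase that degrades p53, at -0.13 ± 0.13, with 95% intervals that included 0. Ei24 was at 0.29 ± 0.09 without overlap, and Bax, a protein of the BCL2 family that opens the mitochondrial membrane, at 0.62 ± 0.26, or 0.12 with the length slope as a covariate. Bcl2a1b, a member of the same family, stood at 4.23, 4.17, 3.04 and 2.71 CPM against 15.5, 5.41, 6.00 and 9.23 CPM (1.35 ± 0.45). The combined libraries were all higher for it, replicate 1 most, although near-identical copies of this gene can share its reads. Mki67, a marker of cycling cells, was at -0.04 ± 0.12.

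**Figure D5:**
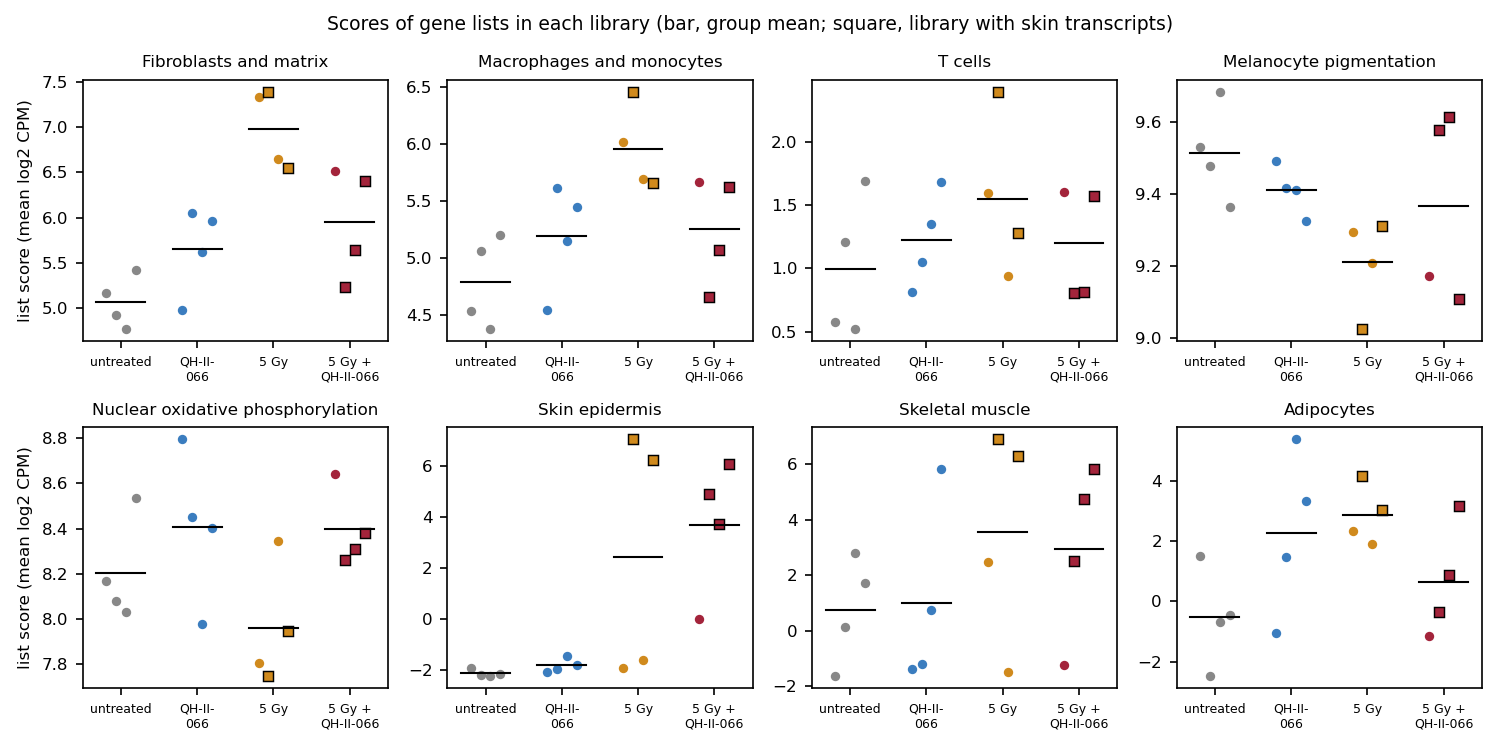
Score (mean log2 CPM of the tested members) of 8 gene lists in each of the 16 libraries; bars are group means and squares are the libraries with skin transcripts. The fibroblast score is 6.54 to 7.39 after 5 Gy and 5.23 to 6.52 in the combined group, while T cell and pigmentation scores overlap between the groups.

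The subunits of the GABA-A receptor, the channel named in the title, were barely counted in these tumours. Of 19 subunit genes, 3 passed the filter on low counts. Gabra3 stood at 1.49, 2.35, 1.01 and 0.577 CPM after 5 Gy and at 1.65, 0.0784, 0.597 and 2.68 CPM in the combined group (-0.20 ± 0.79). Gabrb1 was at -0.64 ± 0.79 and Gabrd at 0.42 ± 0.51, with overlap in each.

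Genes that anchor the receptor or move GABA and chloride were described as a list of 19 tested members, with a median of -0.18, 4 at an unadjusted p under 0.05 (against 7.9% of all genes) and 4 without overlap (against 3.97%). Their median exon length was 6022 bases, and with the length slope as a covariate the median log2 fold change was -0.02. The score of the list was lower in every combined library than in every 5Gy library, but only narrowly. It was 4.704 in combined replicate 3 and 4.718 in 5Gy replicate 3. The score includes Slc6a13, which was barely counted, as described below. Gphn, the scaffold gephyrin that anchors the receptor at synapses, stood at 52.5, 47.2, 39.4 and 51.1 CPM against 24.4, 34.8, 33.7 and 29.9 CPM (-0.63 ± 0.21). It was lower in all 4 combined libraries, and with the length slope as a covariate it was at -0.22. Slc6a6, the taurine transporter, stood at 270, 241, 170 and 247 CPM against 73.4, 167, 153 and 116 CPM (-0.86 ± 0.34), and at -0.19 with that covariate.

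Slc6a13, a GABA transporter, was counted at 0.427, 1.35, 0.135 and 0.136 CPM after 5 Gy and at 0, 0, 0.0298 and 0 CPM in the combined group. Fewer than 3 counts allow up to 0.0735 CPM in combined replicate 1 and 0.429 CPM in replicate 4 before TMM scaling. The last of these lies above the 5Gy levels of 0.135 and 0.136 CPM, so the lack of overlap rests on a count of 0 at that depth, and no fold is given. Gabarap, a protein of autophagy that also binds the receptor, and its relative Gabarapl1 were at 0.31 ± 0.18 and -0.20 ± 0.14. Their levels overlapped between the groups.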

How the data were processed

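The deposited table gives, for each gene, the raw count of fragments, a whole number. Per the submitters' processing notes, STAR 2.4.1a, featureCounts and edgeR were used, and the build was mm10. According to its header line, the deposited table was made by featureCounts 1.6.0 over exons without a strand setting. Coordinates are those of the table, counted from 1. The table held 46078 genes, 45143 with a symbol. All 16 libraries entered one edgeR 4.0.16 model of group means (R 4.3.3; filterByExpr, TMM, robust quasi-likelihood test, two-sided, Benjamini-Hochberg adjustment over 16101 genes, threshold 0.05). SE and 95% intervals come from it. DESeq2 1.42.0 and limma 3.58.1 (voom with sample weights) were alternatives, with other scalings, filters, covariates, blocks and libraries left out. DESeq2 gave no adjusted p for 1892 genes. List scores are mean log2 CPM with a prior count of 2.

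Named genes were the 10 of smallest p in each direction whose mean log2 CPM reached 1, up to 4 per described list, 5 per direction with the skin score as a covariate, and fixed genes; 2 genes of the rule are not reported here. The comparison, the lists and this rule were chosen with earlier results of these data known. Within-group correlations were 0.899 to 0.979, and 0 pairs of libraries were identical. As a check, the test was run on simulated counts with known fold changes, and the outcome is not given here. Apart from the changed genes, the simulated libraries shared a common mean profile, so differences in skin, muscle or gene length between libraries were outside that check.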

Additional observations from a re-analysis of the deposited data

Results flagged for a closer look

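In 262 groups of 4 values (levels of named genes and list scores in the 5Gy and combined groups), 20 held a library whose gap to its nearest neighbour was a larger share of the group's range than Dixon's 95% critical value. Chance flags about 1 in 20 groups, and the values are given without a cause.

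In the 5Gy group, replicate 2 stood apart for Npl (15.5 CPM), Cd163 (42.7 CPM), Ltbp1 (13.9 CPM), Gzmb (19.8 CPM) and the plasma cell list (score 3.497). Replicate 1 stood apart for Mdm2 (55.2 CPM), Hk2 (385 CPM) and Mki67 (359 CPM), each the highest of its group.

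In the combined group, replicate 4, the shallowest library, was the highest for Npl (7.29 CPM), Cd163 (15.6 CPM) and Adipoq (8.34 CPM) and the lowest for the list of the BCL2 family and caspases (score 5.057). Replicate 1 was the highest for Cd247 (1.24 CPM), Ndufa4 (887 CPM) and Bax (241 CPM) and the lowest for the p53 list (score 4.22). Replicate 2 was the highest for S100a8 (33.8 CPM) and S100a9 (37.5 CPM). Replicate 3 was the lowest for Fam193b (24.5 CPM) and the only combined library with a count for Slc6a13 (0.0298 CPM).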

How the results depend on the processing

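edgeR called 0 genes in the comparison of the combined group with 5Gy under every scaling, filter, covariate, subset of libraries and left-out library that was run, and with an adjusted p under 0.1. With DESeq2 the counts were 76 higher and 47 lower, and with limma-voom 20 and 64. For the interaction, DESeq2 called 59, limma-voom 492, and edgeR 1 with the skin score and 1 with the skin and muscle scores as covariates. Of 41 list medians, moved by more than the spread between libraries were 16 without the libraries with skin transcripts, 7 with the length slope, 4 without combined replicate 4, 1 as a mean and 0 with the skin score. That spread is the SD of a list's score within the compared groups, which is wide for skin and muscle. The skin median went from -0.87 to 2.71 without the libraries with skin transcripts. It counted as not moved, since the SD of its score was 4.87 and 2.64. The settings with the length slope and without combined replicate 4 were added for the lists after the data had been seen. That replicate, with 6994198 counts, gives the least precise levels.

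Several genes whose log2 fold change turned sign had values near 0 or wide errors. Not all did: Gabarap was at 0.31 ± 0.18 in the main fit. The skin score includes Krt5, Krt14 and Krt10, and the muscle score includes Acta1 and Ckm. With its own list's score as a covariate, each of these genes is in part adjusted for itself. The cause of the turns was not tested, and the values that turned are given by setting. With the gene length slope as a covariate they were Gabarap -0.0404, Gabrd -0.32, Cxcl10 -0.32, Mdm2 0.0276, Krt5 4.28, Krt14 4.87, Mki67 0.10, Tyr 0.19 and Krt10 0.60. With only the irradiated libraries that had skin transcripts they were Cxcl10 -0.23, Mki67 0.0401 and Tyr 0.0863. With limma-voom they were Krt5 0.89, Krt14 1.96, Tyr 0.0446 and Krt10 0.35. With the muscle score as a covariate they were Krt5 1.58, Krt14 2.98, Acta1 0.32, Krt10 1.40 and Ckm 0.13. With the replicate number as a block, whose numbers do not pair the samples (correlations of -0.383, -0.17, -0.429 and -0.196 between deviations of the same number), 0 genes were called in either direction, and the values were Krt14 0.15 and Krt10 0.20. With the skin and muscle scores as covariates they were Ifng 0.0547, Krt5 0.35, Krt14 1.04, Acta1 0.40, Mki67 0.00306, Krt10 0.28 and Ckm 0.41. With the skin score as a covariate they were Krt5 0.43, Krt14 1.63 and Krt10 0.13. Without the libraries with skin transcripts they were Gabra3 0.40, Gabrb1 0.37, S100a9 -0.73, Cd8a 0.52, Gzmb 0.50, Prf1 0.22, Ifng 0.53, Cd3e 0.44, Krt5 3.12, Krt14 3.56 and Krt10 2.92. Leaving out 1 library at a time turned the sign of 10 genes, with these ranges: Cd3e -0.58 to 0.13, Cdkn1a -0.17 to 0.0209, Cxcl10 -0.18 to 0.24, Gabra3 -0.79 to 0.22, Gzmb -0.60 to 0.26, Ifng -0.31 to 0.22, Krt14 -1.29 to 0.53, Mki67 -0.0803 to 0.0473, S100a8 -0.39 to 3.51 and Tyr -0.24 to 0.0137.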
